A study of Mus musculus with 47 samples.

Results

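Transcription factor and receptor genes of the extraembryonic lineages, 9 in all, were followed by gene symbol in mouse embryonic stem (ES) cells: Gata6, Gata4, Sox17, Sox7 and Pdgfra of the primitive endoderm, and Gata3, Tfap2c, Elf5 and Hand1 of the trophoblast. All probes with these symbols were taken, which gave 15 of the 25697 probes of an Illumina mouse array and 9 of its 16593 named genes. The 47 arrays cover 4 lines, 1 line per genotype by the labels. These were KO (Tcf7l1-/-), 3XKO (Tcf7-/- Tcf7l2-/- Lef1-/-), 4XKO (Tcf7-/- Tcf7l1-/- Tcf7l2-/- Lef1-/-) and wild type (WT). TCF/LEF factors bind DNA and recruit beta-catenin, the effector of Wnt signals. All cells were kept in N2B27 medium. ESC cultures received 1 uM PD0325901 (an inhibitor of the kinase MEK), 3 uM CHIR99021 (an inhibitor of Gsk3, which stabilises beta-catenin) and 1000 U/mL LIF, the naive condition. EpiLC (epiblast-like) cultures received 12 ng/mL Fgf2, and EpiLC+CH cultures spent 3 days in Fgf2 and then 24 hours with 3 uM CHIR99021 added. Each line was measured in these 3 media with 3 arrays per group, and WT also in Fgf2 with CHIR99021 throughout (ContinuedCH, 3 arrays). No time in Fgf2 is given for the untreated EpiLC, so CHIR99021 and days of culture cannot be told apart in EpiLC+CH. A second set of 8 WT arrays, normalized apart, holds LIF+PD+24hrCH (3 arrays), LIF+PD (3), LIF+CHIR (1) and PD+CHIR (1), with each agent at the dose given above. The protocol for LIF+PD+24hrCH gives 24 hours in LIF+PD and then 48 hours with CHIR99021, while the name reads as 24 hours of CHIR99021, and which holds is not known here.

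In the blastocyst the inner cell mass gives the epiblast, from which ES cells derive, and the primitive endoderm, which forms the yolk sac lining. The trophoblast, the future placenta, separates earlier. Gata6 specifies primitive endoderm against the epiblast, Pdgfra is a receptor tyrosine kinase on its precursors, and Sox17, Gata4 and Sox7 act as it matures. Gata3, Elf5 and Hand1 act in the trophoblast and its derivatives. Tfap2c (AP-2 gamma) serves the trophoblast and primordial germ cells, and it is also expressed in naive ES cells.

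Promoter windows from RefSeq (GRCm38.p6, 250 bases before to 50 after the start) were matched for Gata3, Pdgfra and Elf5. Those of Gata3 and Pdgfra are shown because results on both genes, given below, compare lines that lost TCF/LEF factors with WT. They are given 5′ to 3′ on the strand of the gene, at chr2:9878551-9878850 on the minus strand and chr5:75152001-75152300 on the plus strand, with no capitals as neither motif was found.
Gata3: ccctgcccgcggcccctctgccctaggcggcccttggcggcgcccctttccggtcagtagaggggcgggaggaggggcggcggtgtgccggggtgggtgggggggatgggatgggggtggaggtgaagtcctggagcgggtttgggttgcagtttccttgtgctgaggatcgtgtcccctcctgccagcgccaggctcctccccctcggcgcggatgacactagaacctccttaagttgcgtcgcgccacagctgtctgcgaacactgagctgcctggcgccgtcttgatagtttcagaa
Pdgfra: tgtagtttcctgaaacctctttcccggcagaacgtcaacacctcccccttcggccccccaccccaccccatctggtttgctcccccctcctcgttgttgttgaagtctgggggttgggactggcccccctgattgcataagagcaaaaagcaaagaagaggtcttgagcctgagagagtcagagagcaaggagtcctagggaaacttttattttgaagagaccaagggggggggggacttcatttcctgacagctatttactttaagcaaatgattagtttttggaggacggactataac
The motifs searched on both strands were CTTTGAT for TCF/LEF, present in 1225 of 32851 windows (3.73%), and AGATAA for GATA factors, present in 3672 (11.2%). Neither window held either motif. Both genes are annotated to reach further upstream than the start used, and sequence outside these windows was not searched. The Gata3 window held 22 CpG and the Pdgfra window 5, against a median of 7 over all windows. Of the 2 Elf5 windows, 1 held the TCF/LEF letters, 52 bases before the start.

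Levels are the deposited background-subtracted intensities, which can be negative. A value counted as above background when it exceeded the size of the most negative value of its set, 13.6 for the 39 arrays of the main set and 14.3 for the 8 others. By this limit Tfap2c was above background in all 47 arrays, on all 3 of its probes. Gata6 was above it in 37 arrays, Gata3 in 16, Pdgfra in 15, Sox7 in 12 and Sox17 in 9. Gata4, Hand1 and Elf5 (3 probes) were under the limit in every array. Their highest values were 13.2 for Gata4, 4.6 for Hand1 and 8.6 for Elf5. In bulk RNA a low level in all cells and a high level in few cells cannot be told apart, nor can fewer cells of a type and less RNA per cell.

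**Figure D1:**
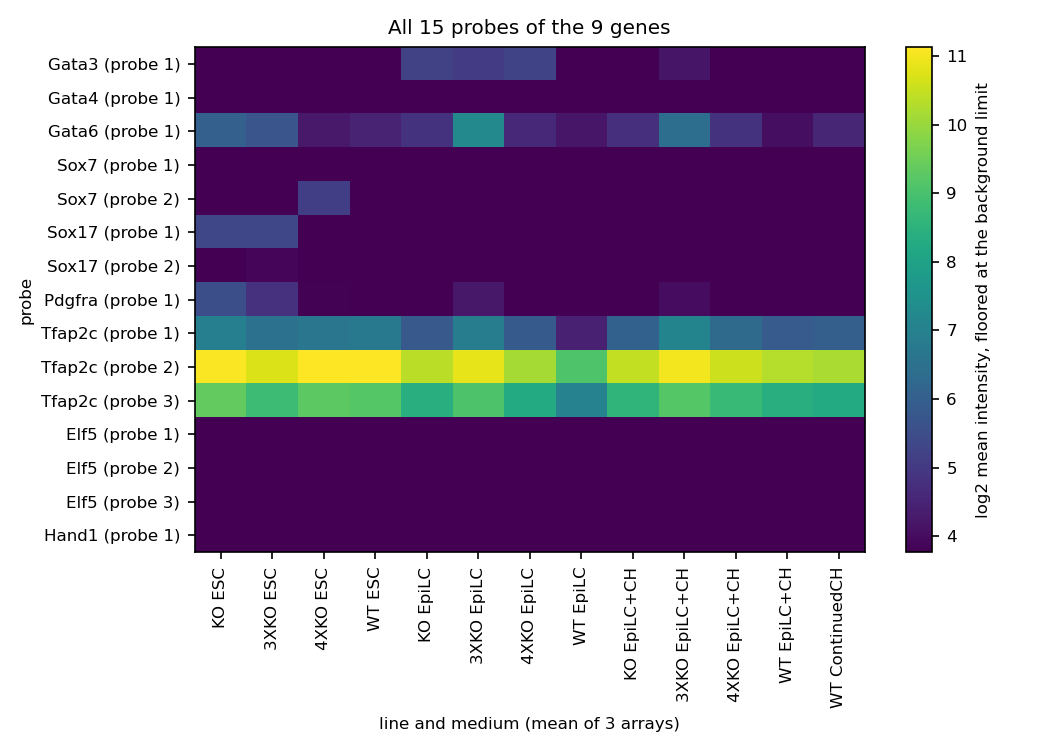
Colour gives the log2 mean intensity of each of the 15 probes (rows) in each line and medium of the main set (columns, 3 arrays each), with means under the background limit of 13.6 drawn at that limit. Tfap2c is above the limit in every group, Gata6 has its highest level in 3XKO EpiLC, and Gata4, Elf5 and Hand1 stay at the limit.

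Tcf7l1, lost in KO and 4XKO, averaged 193.9 ± 20.1 (KO) and 680.7 ± 55.1 (4XKO) among ESC arrays, while WT averaged 1499 ± 191 (SD, n = 3 each). A signal thus stayed in both lines, and whether the probe lies in the deleted part was not tested. Tcf7l2, lost in 3XKO and 4XKO by the labels, was above the limit on all 47 arrays, which alone does not show whether its level fell. Lef1, lost in the same lines by the labels, was above the limit on 15 arrays. Levels of Tcf7l2 and Lef1 by line are not given here. All 11 listed pluripotency genes were above the limit on every array. Among 10 fibroblast genes measured, Col1a1, Col3a1, Lum and Postn were above the limit on none, while Twist1 was above it on 45 arrays, Thy1 on 41 and Acta2 on 36. The labels call the replicates biological triplicates, and KO EpiLC replicates 2 and 3 were the closest pair of arrays. With 1 line per genotype, p-values measure the spread between arrays, and a lost factor cannot be told apart from other differences between lines. Genes of chromosome 1, which carries Sox17, had a median log2 difference from WT of 0.50 to 0.55 in the 3 media of 3XKO, over 243 genes with a mean intensity above 100. The medians of the chromosomes of the other members lay between -0.09 and 0.09 in all 9 comparisons with WT.

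Differences below are log2 differences ± SE from limma with Benjamini-Hochberg adjustment over all 25697 probes, and a difference was called at an adjusted p under 0.05. Where 1 side lay wholly under the limit, the fold is a lower bound against the limit. In a variant fit, given as the floor at the limit, values under the limit were set to it. Such values lose their scatter, so the adjusted p-values of that fit can understate the spread between arrays. Over the 9 comparisons of mutant lines with WT, 25 of 81 member tests were called (30.9%), against 16.6% of all probes. For EpiLC against ESC the calls were 12 of 36 (33.3%), against 24.8% of all probes. For EpiLC+CH against EpiLC they were 2 of 36 (5.56%), against 3.87%.

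By comparison with WT, the called members in ESC numbered 2 of 9 in KO (9.39% of all probes called), 4 in 3XKO (14.2%) and 0 in 4XKO (5.65%). In 4XKO ESC limma gave 2 members, Gata4 and Sox7, an unadjusted p under 0.05. In EpiLC they numbered 3 in KO (21.8%), 5 in 3XKO (18.8%) and 3 in 4XKO (20.0%), and in EpiLC+CH 1 in KO (21.1%), 3 in 3XKO (17.6%) and 4 in 4XKO (20.6%). For EpiLC against ESC they numbered 6 in KO (20.4%), 1 in 3XKO (27.8%), 3 in 4XKO (20.9%) and 2 in WT (30.0%). For EpiLC+CH against EpiLC 1 member was called in 4XKO (2.16%) and 1 in WT (6.51%). limma called 0 in KO (0.934%), where 0 had an unadjusted p under 0.05, and 0 in 3XKO (5.85%), where Gata6 and Elf5 had one. Shares of called members near those of all probes say nothing particular of the members.

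Gata6 was higher in KO and 3XKO than in WT in the naive medium. Its intensities were 75, 62.2 and 59.2 in KO ESC, 55.6, 56.8 and 44.8 in 3XKO ESC, 20.9, 17.4 and 19.4 in 4XKO ESC, and 30.6, 16.9 and 19.7 in WT ESC. All 6 arrays of KO and 3XKO lay above all 6 of 4XKO and WT. The difference from WT was 1.59 ± 0.28 in KO (3.00-fold, adjusted p = 0.000254) and 1.26 ± 0.28 in 3XKO (2.40-fold, adjusted p = 0.00185). With a spread taken only from the groups compared (a within-pair spread), neither was called. In 4XKO, labelled as lacking all 4 factors, Gata6 was lower than in KO (-1.76 ± 0.28, 3.39-fold, adjusted p = 4.3e-05) and than in 3XKO (-1.44 ± 0.28, adjusted p = 0.000515). It was not called against WT (-0.18 ± 0.28).

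The highest Gata6 levels of the series were those of 3XKO in Fgf2. They were 160.0, 121.6 and 171.4 in 3XKO EpiLC, against 21.0, 15.2 and 19.0 in WT EpiLC. KO EpiLC had 23.5, 35.3 and 27.1, and 4XKO EpiLC had 20.8, 18 and 34.9, so the arrays of 3XKO stood apart from the 9 others. The 3XKO difference from WT was 3.04 ± 0.28 (8.20-fold, adjusted p = 2.2e-09), while KO (0.63 ± 0.28) and 4XKO (0.37 ± 0.28) were not called. Between EpiLC and ESC, Gata6 rose in 3XKO by 1.52 ± 0.28 (2.87-fold, adjusted p = 8.2e-05) and fell in KO by 1.21 ± 0.28 (2.31-fold, adjusted p = 0.00176). In WT and 4XKO it was not called. The transition of 3XKO differed from that of WT by 1.77 ± 0.40 (adjusted p = 0.00311), a call lost in the fit of all 47 arrays. The 11 pluripotency genes had a summed intensity of 44078 to 55046 for KO EpiLC, 29640 to 30892 for 3XKO EpiLC, 50165 to 53009 for 4XKO EpiLC and 25046 to 27698 for WT EpiLC. Their part in the Gata6 result was not tested.

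With CHIR99021, Gata6 in 3XKO EpiLC+CH was 63.5, 102.2 and 93.6, and each array lay under each of the 3XKO EpiLC arrays. This difference of -0.82 ± 0.28 was not called (adjusted p = 0.0993). Against WT EpiLC+CH, at 18.1, 12.6 and 18.4, 3XKO was 2.39 ± 0.28 higher (5.26-fold, adjusted p = 2.08e-07). Gata6 in 4XKO EpiLC+CH, at 29.3, 29.5 and 27.6, was 0.84 ± 0.28 higher than in WT (adjusted p = 0.033). That call was lost in the fit of all 47 arrays, without any 1 of the 3 arrays of 4XKO EpiLC+CH and without WT EpiLC+CH replicate 2.

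In the naive medium, Sox17 and Pdgfra were above the limit on every array of KO and 3XKO. Sox17 was 47.2, 37.3 and 36.1 in KO ESC, 34.8, 42.4 and 44.6 in 3XKO ESC, 11.1, 9.8 and 19.2 in 4XKO ESC, and 15.2, 7.9 and 6.1 in WT ESC. The groups of KO and 3XKO did not overlap with those of 4XKO and WT. The differences from WT were 2.15 ± 0.75 in KO (adjusted p = 0.0734) and 2.16 ± 0.75 in 3XKO (adjusted p = 0.052), and neither was called. The 3XKO difference was called under 8 of 14 alternatives, among them the within-pair spread, and the KO difference under 2, the replicate block and the floor at the limit. With values under the limit set to it, they were 1.5 and 1.52 and were called (adjusted p = 2.81e-12 and 1.19e-12). That floor removes the scatter of background values, in WT ESC and in other groups. These adjusted p-values therefore understate the spread between arrays. Sox17 lies on chromosome 1, whose median was 0.50 higher in 3XKO ESC and -0.01 in KO ESC. Its second probe was above the limit on 1 array, of 3XKO ESC.

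In KO, Sox17 fell by 2.37 ± 0.75 in EpiLC, at 3.3, 10 and 14, relative to ESC (adjusted p = 0.0218). That call was lost under a within-pair spread and without replicate 1 of KO EpiLC or of KO ESC. Outside ESC no group of the 4 lines had Sox17 above the limit on more than 1 array, and 3XKO EpiLC, where Gata6 was highest, had 13.1, 10.3 and 9.0.

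Pdgfra was 53.1, 51.3 and 36.1 in KO ESC, 23.7, 26.9 and 33.3 in 3XKO ESC, 9.8, 13.9 and 18.3 in 4XKO ESC, and 8.1, 3.1 and 11.2 in WT ESC. KO was highest, and the KO and 3XKO arrays did not overlap with each other or with the other lines. The difference from WT was 2.82 ± 0.52 in KO (at least 3.39-fold, adjusted p = 0.000422) and 2.08 ± 0.52 in 3XKO (at least 2.04-fold, adjusted p = 0.00552), both lost under a within-pair spread. Without WT ESC replicate 2, 3XKO was also lost. Relative to KO ESC, 4XKO ESC was lower (-1.76 ± 0.52, 3.40-fold, adjusted p = 0.0214). Leaving out replicate 1 or 2 of either group ended that call, as did the fit of all 47 arrays.

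Outside the naive medium, Pdgfra was above the limit on all arrays of a group only in 3XKO, at 19.8, 14.3 and 22.2 in EpiLC and 17.5, 15.4 and 15.8 in EpiLC+CH. WT had 3.3, 4.9 and 2.0 in EpiLC and 3.3, -3.3 and -0.1 in EpiLC+CH. The 3XKO difference from WT was called in EpiLC (2.54 ± 0.52, at least 1.36-fold, adjusted p = 0.000539) and in EpiLC+CH (3.44 ± 0.52, at least 1.19-fold, adjusted p = 1.14e-05). With the floor at the limit the EpiLC+CH difference was 0.25 and not called. In KO Pdgfra fell by 2.33 ± 0.52 in EpiLC relative to ESC (at least 3.39-fold, adjusted p = 0.00115). Further Pdgfra calls against WT, in KO and 4XKO EpiLC and EpiLC+CH, compared values under or near the limit and were lost with the floor at the limit.

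**Figure D2:**
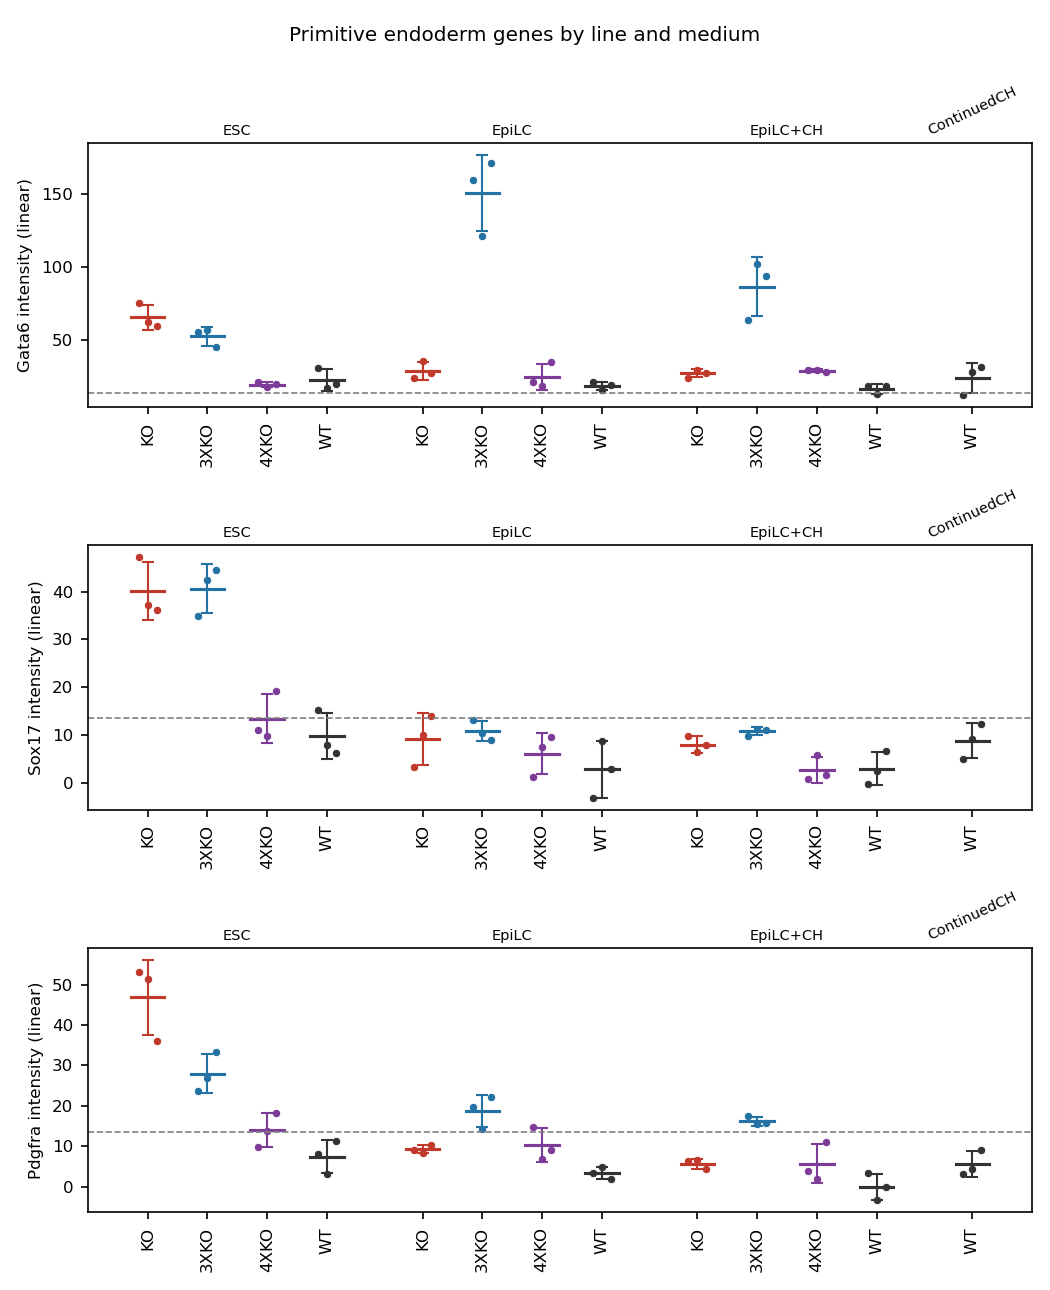
Each point is 1 array (linear intensity, y axis) of a line in a medium (x axis), bars give the mean and SD of 3 arrays, and the dashed line is the background limit of 13.6. Gata6, Sox17 and Pdgfra stand highest in KO and 3XKO among the ESC groups, and Gata6 reaches 121.6 to 171.4 in 3XKO EpiLC.

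Sox7, a Sox factor of the parietal endoderm, had another pattern. It was 43.1, 33.8 and 28.1 in 4XKO ESC, 7.2, 12.2 and 8.0 in KO ESC, 1.9, 2.7 and 4.2 in 3XKO ESC, and 13.8, 11.3 and 9.3 in WT ESC. All arrays of 4XKO lay above all others of the medium. The difference was called against 3XKO (3.63 ± 0.76, at least 2.53-fold, adjusted p = 0.00106), but not against WT (1.61 ± 0.76, adjusted p = 0.291) or KO (1.95 ± 0.76, adjusted p = 0.0989). With the floor at the limit, 4XKO against WT was 1.33 (adjusted p = 1.67e-13) and 4XKO against KO 1.34 (adjusted p = 8.25e-14). That floor removes the scatter of Sox7 in most groups, so these adjusted p-values understate the spread between arrays. In 4XKO EpiLC it was under the limit again at 6.1, 2.0 and 7.2 (-2.96 ± 0.76 relative to ESC, at least 2.53-fold, adjusted p = 0.00416). The second Sox7 probe was never above the limit.

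Sox7 was also above the limit in the second set of WT arrays, at 31.5, 28.6 and 32.0 in LIF+PD+24hrCH, 31.9, 37.3 and 20.7 in LIF+PD and 30.7 in LIF+CHIR. PD+CHIR had 6.9. The single arrays have no replicate check, and since that set was normalized apart its levels were not tested against WT ESC. Gata6, Gata3, Sox17 and Pdgfra lay under 14.3 on all 8 of these arrays. In LIF+PD+24hrCH against LIF+PD limma called 0 of 9 members, against 0.342% of all probes, and 1 of them (Sox17, under the limit) had an unadjusted p under 0.05.

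Among the trophoblast genes, Gata3 was above the limit on all arrays of the EpiLC of the mutant lines and of 3XKO EpiLC+CH. In EpiLC it was 23.9, 47.4 and 39.5 in KO EpiLC, 30.5, 33.6 and 36.8 in 3XKO EpiLC, 48.4, 24.0 and 44.3 in 4XKO EpiLC, and 14.6, 2.7 and 10.2 in WT EpiLC. All 9 mutant arrays exceeded the WT arrays, and the mutant lines overlapped with each other. The differences from WT were 2.27 ± 0.72 in KO (adjusted p = 0.0217), 2.19 ± 0.72 in 3XKO (adjusted p = 0.0317) and 2.33 ± 0.72 in 4XKO (adjusted p = 0.0195). With the WT arrays under the limit set to it, and the other WT array at its own value, the folds were 2.55, 2.41 and 2.67. Leaving out WT EpiLC replicate 2, the lowest, ended each of these 3 calls. So did leaving out KO EpiLC replicate 2 or 3, or averaging them, for KO, any 1 array of 3XKO EpiLC for 3XKO and 4XKO EpiLC replicate 1 or 3 for 4XKO, as did a within-pair spread. With the floor at the limit all 3 were called, at 1.35, 1.27 and 1.42.

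In ESC Gata3 was above the limit on 1 array of 4XKO alone (15.6). Relative to ESC it was higher in EpiLC of KO by 3.49 ± 0.72 (at least 2.61-fold, adjusted p = 0.000472) and of 4XKO by 3.12 ± 0.72 (adjusted p = 0.00159), while 3XKO (1.53 ± 0.72, adjusted p = 0.13) was not called. Under a within-pair spread the KO and 4XKO calls were lost and 3XKO was called. With the floor at the limit all 3 were called, at 1.38 in KO, 1.30 in 3XKO and 1.39 in 4XKO, so no difference between the lines is read from the calls. With CHIR99021 it was 16.3, 12.8 and 12.4 in KO EpiLC+CH, 16.1, 15.5 and 22.9 in 3XKO, 9.7, 13.8 and 7.9 in 4XKO, and 9.1, 7.9 and 13.1 in WT. Every mutant array in EpiLC+CH lay under every array of its own line in EpiLC. None of these differences was called (adjusted p = 0.57 in KO, 0.714 in 3XKO and 0.198 in 4XKO). With the floor at the limit they were -1.30, -0.91 and -1.44 and were called (adjusted p = 0.000176, 0.00171 and 7.17e-05).

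**Figure D3:**
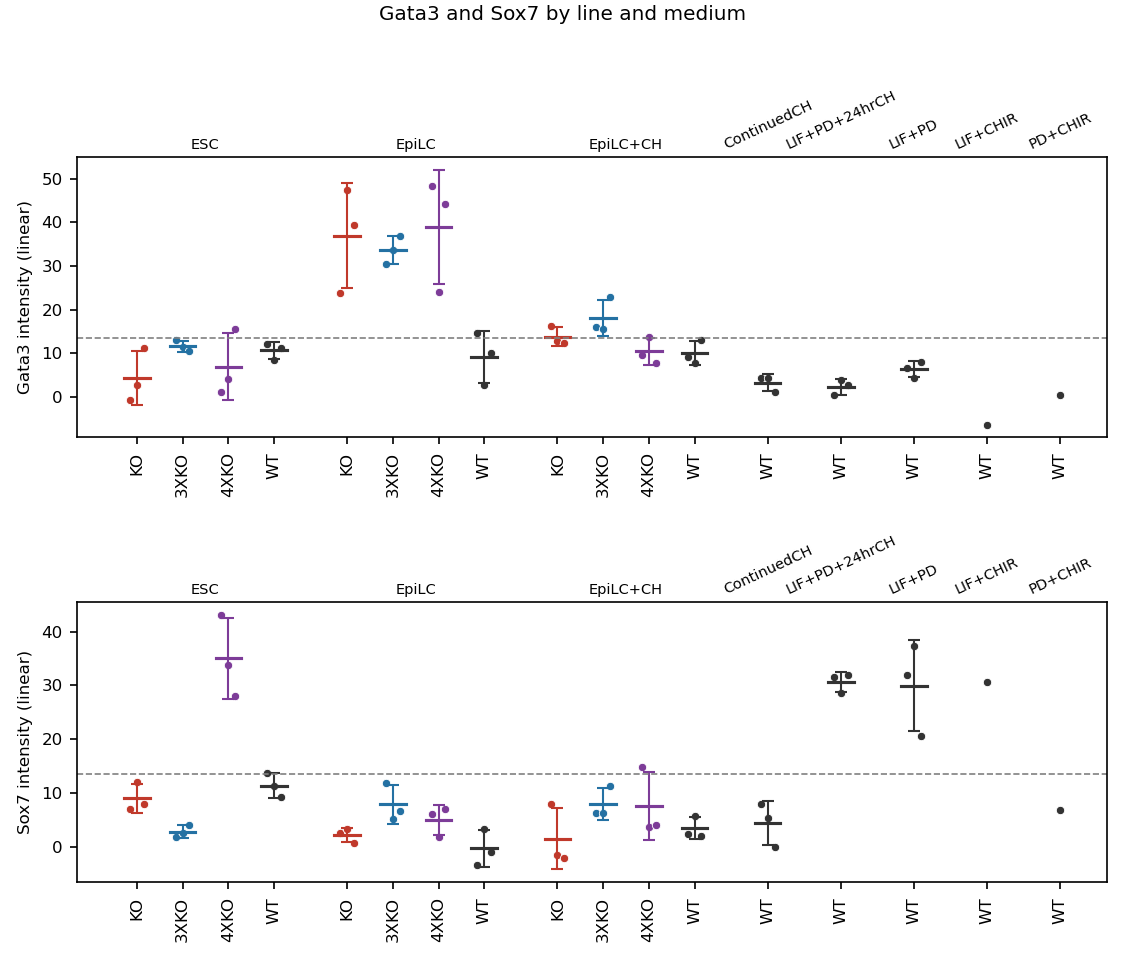
Points are single arrays (linear intensity, y axis) of Gata3 and Sox7 by line and medium, with the mean and SD of 3 arrays and the main set's background limit of 13.6 as a dashed line. The 4 media on the right belong to the second WT set, whose limit was 14.3. Gata3 is above the limit in the 3 mutant EpiLC groups and in 3XKO EpiLC+CH, Sox7 in 4XKO ESC and in 3 media of the second set.

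The best Tfap2c probe was 2247, 2259 and 2057 in KO ESC, 1733, 1642 and 1777 in 3XKO ESC, 2198, 2270.0 and 2191 in 4XKO ESC, and 2401, 2365 and 1984 in WT ESC. The 3XKO arrays lay under all others of the medium. In ESC only 3XKO was called against WT, and was lower (-0.39 ± 0.09, 1.31-fold, adjusted p = 0.00193). That call was lost under a within-pair spread.

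In EpiLC the lines separated. Tfap2c was 1329, 1338 and 1314 in KO EpiLC, 1978, 1743 and 1858 in 3XKO EpiLC, 1158, 1124 and 1131 in 4XKO EpiLC, and 587, 539 and 526 in WT EpiLC. The 4 groups did not overlap. The differences from WT were 1.27 ± 0.09 in KO (2.41-fold, adjusted p = 1.66e-12), 1.76 ± 0.09 in 3XKO (3.38-fold, adjusted p = 5.89e-15) and 1.05 ± 0.09 in 4XKO (2.07-fold, adjusted p = 1.03e-10). 4XKO EpiLC lay below 3XKO EpiLC (-0.71 ± 0.09, 1.63-fold, adjusted p = 2.18e-07) and was not called against KO EpiLC (adjusted p = 0.197).

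Relative to ESC, Tfap2c in EpiLC fell by 0.72 ± 0.09 in KO (1.65-fold, adjusted p = 1.56e-07), fell by 0.96 ± 0.09 in 4XKO (1.95-fold, adjusted p = 6.28e-10) and fell by 2.03 ± 0.09 in WT (4.08-fold, adjusted p = 1.87e-17). In 3XKO it was 0.11 ± 0.09 higher, which was not called (adjusted p = 0.415). The transition differed from that of WT by 1.31 ± 0.12 in KO, 2.14 ± 0.12 in 3XKO and 1.06 ± 0.12 in 4XKO (adjusted p = 2.36e-09, 5.41e-13 and 1.25e-07). The members called were 2 in KO (16.5% of all probes), 3 in 3XKO (10.6%) and 2 in 4XKO (14.4%). Over all members and the 3 lines, 7 of 27 such differences were called (25.9%), against 13.8% of all probes.

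With CHIR99021 added, Tfap2c was 1554, 1333 and 1348 in KO EpiLC+CH, a difference of 0.09 ± 0.09 from KO EpiLC that was not called. It was 2035, 2132 and 2054 in 3XKO EpiLC+CH, a difference of 0.16 ± 0.09 from 3XKO EpiLC that was not called. In 4XKO EpiLC+CH, at 1710, 1350 and 1550, it rose by 0.43 ± 0.09 (1.34-fold, adjusted p = 0.00884), a call lost under a within-pair spread. In WT EpiLC+CH, at 1340, 1306 and 1139, it rose by 1.19 ± 0.09 relative to WT EpiLC (2.29-fold, adjusted p = 3.98e-11). In 3XKO, 4XKO and WT every array in EpiLC+CH exceeded those of its line in EpiLC, and in KO the groups overlapped. The 4XKO and WT differences were the 2 calls among the 36 member tests of EpiLC+CH against EpiLC.

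The response to CHIR99021 was itself tested between lines. For Tfap2c its difference from the WT response was -1.11 ± 0.12 in KO (adjusted p = 5.12e-07), -1.04 ± 0.12 in 3XKO (adjusted p = 1.09e-05) and -0.77 ± 0.12 in 4XKO (adjusted p = 0.000136). These, 1 per line, stood against 2.04% of all probes in KO, 0.693% in 3XKO and 4.34% in 4XKO. They were the 3 calls among 27 member tests (11.1%), against 2.36% of all probes. In EpiLC+CH, 3XKO was 0.72 ± 0.09 above WT (1.65-fold, adjusted p = 2.78e-07) and 4XKO 0.28 ± 0.09 above it (1.22-fold, adjusted p = 0.0181), while KO was not called (0.16 ± 0.09). The 4XKO call was lost under a within-pair spread, without replicate 1 or 3 of 4XKO EpiLC+CH and without replicate 3 of WT EpiLC+CH.

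Over the 13 groups the 3 Tfap2c probes correlated at r = 0.971 to 0.995. On the other 2 probes WT EpiLC differed from WT ESC by -2.33 ± 0.13 and -2.18 ± 0.09, and WT EpiLC+CH was 1.45 ± 0.13 and 1.38 ± 0.09 above WT EpiLC. All 3 response differences and all 3 transition differences were called on each.

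**Figure D4:**
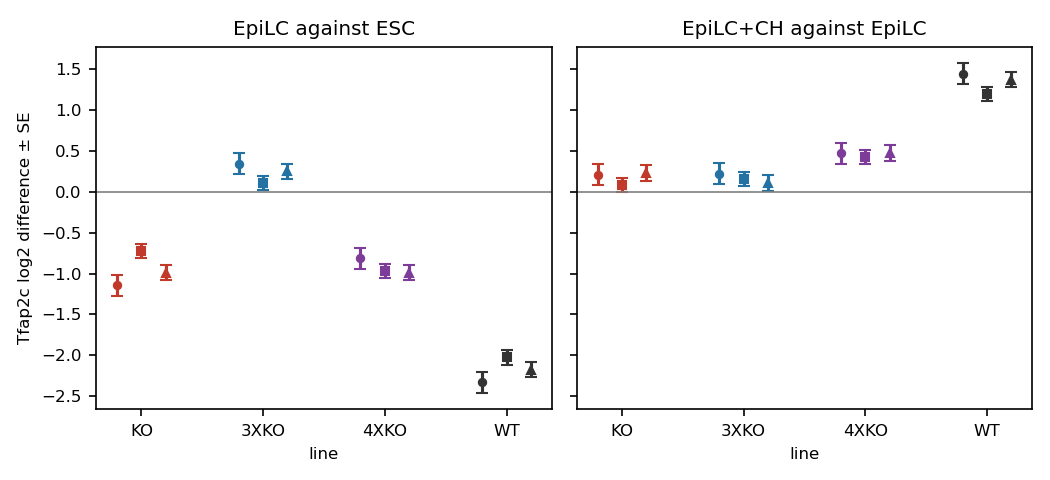
Log2 differences ± SE (y axis) of the 3 Tfap2c probes (circle, square, triangle) in the 4 lines (x axis), for EpiLC against ESC on the left and EpiLC+CH against EpiLC on the right. WT has the lowest EpiLC value and the highest EpiLC+CH value on every probe.

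With CHIR99021 present throughout, Tfap2c in WT ContinuedCH was 1164, 1305 and 1085. It was 1.10 ± 0.09 above WT EpiLC (2.15-fold, adjusted p = 3.82e-11), below WT ESC (-0.92 ± 0.09, 1.90-fold, adjusted p = 1.45e-09) and not called against WT EpiLC+CH. Over these 3 comparisons 3 of 27 member tests were called (11.1%), against 19.3% of all probes. Each comparison had 1 call, against 19.2% of all probes for WT EpiLC, 16.8% for WT EpiLC+CH and 22.0% for WT ESC. The third call was Pdgfra against WT EpiLC+CH, with all 6 arrays under the limit. In the second set Tfap2c was 2999, 2771 and 2650 in LIF+PD+24hrCH and 2323, 2555 and 3183 in LIF+PD, a difference of 0.07 ± 0.14 that was not called. LIF+CHIR had 2291 and PD+CHIR 2949.

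**Figure D5:**
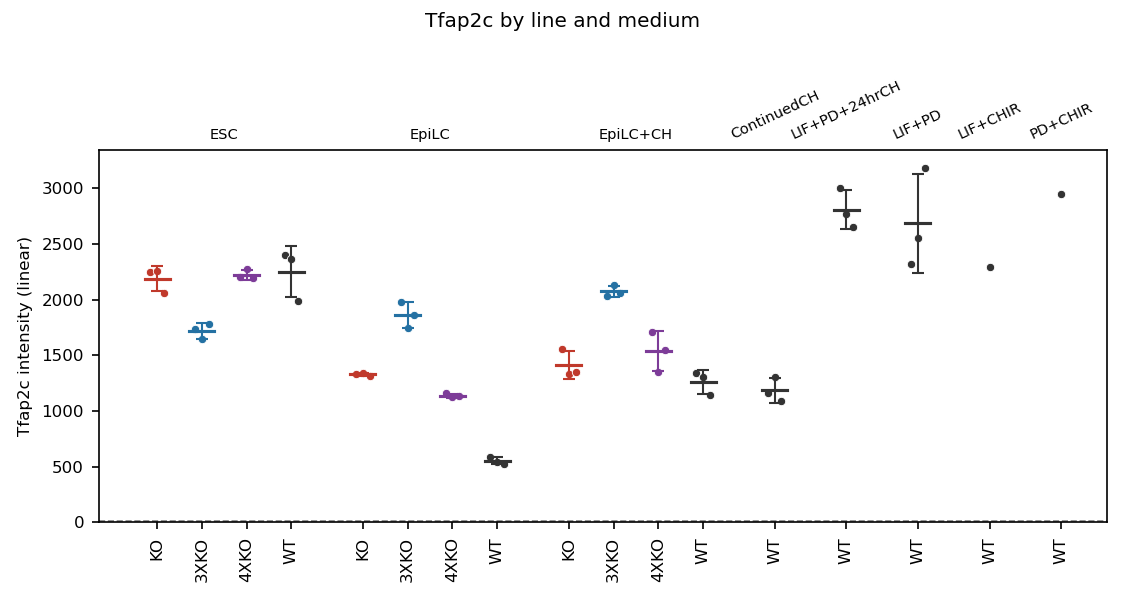
Points are single arrays of the best Tfap2c probe (linear intensity from 0, y axis) by line and medium, with mean and SD of 3 arrays. WT EpiLC, at 526 to 587, is the lowest group, and 3XKO stays at 1642 or above in all 3 media.

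Elf5, Gata4 and Hand1 gave no measured level in any group. Elf5 had 3 called differences and Gata4 had 1, all between groups wholly under the limit and all lost with the floor at the limit. In all, 13 of the 65 called member differences had no group wholly above the limit on either side. 4XKO against the other mutant lines gave 13 calls of 54 (24.1%), against 12.7% of all probes, with 3 in ESC against KO (13%), 4 in ESC against 3XKO (12.7%), 2 in EpiLC against 3XKO (21.1%) and 4 in EpiLC+CH against 3XKO (19.8%). limma called 0 against KO in EpiLC (3.96%) and in EpiLC+CH (5.62%), where 1 and 2 members had an unadjusted p under 0.05. Among the 13 were 4 of Gata6 and 3 of Tfap2c.

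Further genes of the 2 lineages were counted from lists. Of 28 extraembryonic endoderm genes, 25 were measured, and Afp, Cer1, Foxa2, Pth1r and Thbd were above the limit on no array. In ESC, 5 were higher and 2 lower in KO than in WT, 5 and 2 in 3XKO, and 2 and 2 in 4XKO (medians 0.04, 0.00 and -0.10, against 0.00 over all probes in each). The shares of all probes called there were 9.39%, 14.2% and 5.65%. The summed intensity of the list was 8877 to 9647 in KO ESC, 8820 to 10226 in 3XKO ESC, 10010 to 10791 in 4XKO ESC and 10106 to 11117 in WT ESC. These are sums of linear intensities, in which the brightest genes weigh most, and their relation to Gata6 was not tested.

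The basement membrane collagens Col4a1 and Col4a2 led these calls. Col4a1 averaged 811.7 ± 113 in KO ESC, 590.8 ± 32.8 in 3XKO cells and 965.8 ± 22.9 in 4XKO ESC, against 146.2 ± 12.1 in WT ESC. The folds were 5.53, 4.05 and 6.62. Col4a2 averaged 568.3 ± 38.9 in KO ESC, 325.6 ± 36.6 in 3XKO cells and 451.8 ± 48.5 in 4XKO ESC, against 79.6 ± 2.75 in WT ESC. Both collagens averaged higher in 4XKO ESC than in 3XKO ESC, and their relation to Gata6 was not tested. Ttr, a plasma carrier protein of visceral endoderm, was called in 3XKO ESC (19.6 ± 5.47) against WT ESC (4.13 ± 4.31, at least 1.40-fold, adjusted p = 0.0113). Apoe, an apolipoprotein, was lower than in WT in KO ESC (2.12-fold) and 3XKO ESC (1.49-fold).

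In 3XKO EpiLC, where Gata6 was highest, 7 endoderm genes were higher and 2 lower than in WT EpiLC (median 0.17, against 0.00), with 18.8% of all probes called. Lamc1, a laminin chain, was 800.6 in 3XKO EpiLC against 318.6 in WT EpiLC (2.51-fold). Listed genes were not separated by chromosome, and the median of chromosome 1 was 0.50 higher in 3XKO EpiLC than in WT EpiLC. Hnf4a, a nuclear receptor of visceral endoderm, was 29.2 in 3XKO EpiLC against 19.9 in WT EpiLC (1.49-fold). Dab2, an endocytic adaptor of the extraembryonic endoderm, was 35.6 in KO EpiLC and 23.9 in 4XKO EpiLC, against 183.8 in WT EpiLC (5.25-fold and 8.15-fold lower). In KO EpiLC 8 of the 25 genes were higher and 5 lower, and in 4XKO EpiLC 7 and 5, with 21.8% and 20.0% of all probes called. The genes higher in KO and 4XKO EpiLC, and the 2 lower in 3XKO EpiLC, are not named here. The summed intensity of the list was 4146 to 4473 in KO EpiLC and 3783 to 3911 in 4XKO EpiLC. It was 3328 to 3491 in 3XKO EpiLC and 2706 to 2749 in WT EpiLC. The list thus summed higher in KO and 4XKO than in 3XKO, and its relation to Gata6 was not tested.

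Of 22 trophoblast genes 19 were measured, and Esx1 and Tpbpa were above the limit on no array. WT EpiLC had 6 higher and 5 lower than WT ESC (median 0.00, against 0.00), with 30.0% of all probes called. Tfap2a, the paralog of Tfap2c, was 20.6 ± 4.67 in WT EpiLC against 267.9 ± 35.2 in WT ESC (13.1-fold lower). It was 171.8 ± 32.2 in KO EpiLC, 58.9 ± 8.75 in 3XKO EpiLC and 181.3 ± 25.9 in 4XKO EpiLC, which were 8.38-fold, 2.89-fold and 8.88-fold higher than in WT EpiLC. Among the mutant lines Tfap2a averaged lowest in 3XKO EpiLC, where Tfap2c was highest, and a relation between them was not tested. Tead4, a TEAD factor of the trophectoderm, was 142.8 in KO EpiLC and 117.9 in 4XKO EpiLC, against 14.5 in 3XKO EpiLC and 17.7 in WT EpiLC. Cdx2, a trophectoderm and posterior mesoderm factor, was above the limit in 3XKO EpiLC (30.4 ± 10.02), against 5.8 ± 2.04 in WT EpiLC (at least 2.16-fold, adjusted p = 0.0181).

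Lgals3, a galectin, was 1050 in KO EpiLC, 314 in 3XKO EpiLC and 966 in 4XKO EpiLC, against 102 in WT EpiLC. Phlda2, an imprinted placental growth regulator, was 43.2 in KO EpiLC and 39.6 in 4XKO EpiLC, against 574 in WT EpiLC (13.8-fold and 14.6-fold lower). Of the 19 genes, 9 were called in KO EpiLC against WT EpiLC (4 higher), 6 in 3XKO (3 higher) and 10 in 4XKO (5 higher), with 21.8%, 18.8% and 20.0% of all probes called.

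Markers of other cell types were counted beside these results, and their part in them was not tested. Of 7 germ cell genes measured, a type that also expresses Tfap2c, 4 were higher and 0 lower in KO EpiLC than in WT EpiLC, 2 and 1 in 3XKO, and 4 and 0 in 4XKO. Prdm1 was above the limit on no array and Prdm14 on 1. Dppa3 and Dnd1 were above it on all 47, naive cells included, Dazl on 41, Nanos3 on 33 and Ddx4 on 18. The shares of all probes called in these 3 comparisons were 21.8%, 18.8% and 20.0%. The summed germ cell level was 2055 to 2207 in KO EpiLC, 1192 to 1258 in 3XKO EpiLC, 1611 to 1750 in 4XKO EpiLC and 575.2 to 602.9 in WT EpiLC. In WT ESC it was 817.0 to 968.2. The brightest genes weigh most in these sums, which alone do not show germ cells. Of 9 definitive endoderm genes, a type that also expresses Gata6 and Sox17, 3 were higher and 1 lower in KO EpiLC than in WT EpiLC, 2 and 0 in 3XKO, and 3 and 1 in 4XKO. Cer1, Foxa2, Lhx1 and Mixl1 were above the limit on no array, while Hhex and Otx2 were above it on all 47, Gsc on 37 and Cxcr4 on 17.

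Of 13 mesoderm genes, 1 was higher and 1 lower in KO EpiLC than in WT EpiLC, 1 and 0 in 3XKO, and 1 and 1 in 4XKO. On this list 8 genes were above the limit on no array, while Bmp4 was above it on all 47, Snai1 on 32 and Kdr on 24. Of the 10 fibroblast genes 3 were lower in KO EpiLC than in WT EpiLC, 2 in 3XKO and 3 in 4XKO, and 0 were higher in each. Their summed level was 227.8 to 229.8 in KO EpiLC, 1395 to 1482 in 3XKO EpiLC, 213.4 to 244.1 in 4XKO EpiLC and 2707 to 2902 in WT EpiLC. Beside both lists, 21.8% of all probes were called in KO EpiLC against WT EpiLC, 18.8% in 3XKO and 20.0% in 4XKO.

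Members were also compared by their pattern over the 13 groups of the main set, whose arrays share 1 normalization. Group means of log2 values correlated at r = 0.88 between Pdgfra and Sox17, 0.72 between Pdgfra and Gata6, 0.54 between Sox17 and Gata6, and 0.75 between Tfap2c and Sox7. Gata3 was between -0.26 and 0.30 with the other 5. Gata3 and Pdgfra were each wholly above the limit in 4 of the 13 groups, Sox17 in 2 and Sox7 in 1. The correlations of these members, and the genes most like them, rest on those groups and on values under or near the limit. Among 8721 genes above the limit in a group, those most like Tfap2c were Abcb9 (r = 0.92), Cdk20 (0.89) and Fbxo15 (0.89). For Gata6 they were Gm1943 (0.93), Kctd15 (0.91) and Kpna1 (0.91), and for Gata3 Echdc3 (0.89), 4930486L24Rik (0.88) and Trp73 (0.81). For Sox17 they were Ifi27 (0.93), Sdcbp (0.92) and Srgn (0.90), for Pdgfra Zfp869 (0.89), Mcfd2 (0.88) and Sox17 (0.88), and for Sox7 Ccdc71 (0.91), Pnma1 (0.89) and Tm9sf2 (0.87).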

How the data were processed

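The authors deposited 1 table of intensities for 47 arrays. Per the submitters' processing notes, lumi and limma were used, with no versions or roles stated. Negative intensities and near-identical sorted values within 39 and within 8 arrays show that the deposited intensities were background-subtracted and quantile-normalized in 2 sets. Here intensities were floored at 1 and log2-transformed, and arrays were quantile-normalized again within each set, and a means model was fitted with limma 3.58.1 (R 4.3.3; lmFit, eBayes), 1 coefficient per group. In 33 comparisons, p-values were adjusted by Benjamini-Hochberg over 25697 probes. Symbols came from the platform annotation (23978 probes with 1 symbol, 1719 with none). The probe with the highest mean stands for a gene. The fit was tested on simulated data of KO ESC against WT ESC. All 9 members are named. For each member above the limit, the 3 genes most alike are named. At most 4 per list with the largest called differences were planned. The endoderm and trophoblast lists exceed this, and not every called gene is named. Tcf7l1 and pluripotency genes served as checks. The members and lists were chosen with earlier results of these data known. Alternatives, given in the closing section, were other normalizations, floors, filters and spreads, and each array left out. Figures used matplotlib 3.10.9 (Python 3.11.15). The number of arrays limits the precision. Unnormalized scans were not analysed here.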

Additional observations from a re-analysis of the deposited data

Results flagged for a closer look

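The following differences between lines in their response were called by an interaction contrast in limma (log2 ± SE). For Tfap2c, the response to CHIR99021 in EpiLC relative to that of WT was -1.11 ± 0.12 in KO, -1.04 ± 0.12 in 3XKO and -0.77 ± 0.12 in 4XKO. The change of Tfap2c between EpiLC and ESC relative to that of WT was 1.31 ± 0.12 in KO, 2.14 ± 0.12 in 3XKO and 1.06 ± 0.12 in 4XKO. These 6 differences kept their direction and their call under every alternative that was run. All comparisons with WT share the WT arrays.

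For Gata3 the EpiLC change relative to that of WT was 4.02 in KO and 3.64 in 4XKO. These values rest on ESC and WT arrays under the background limit and are 1.35 each with the floor at the limit. The 3XKO difference of Gata3, 2.05 and not called, was then 1.27 and called (adjusted p = 0.00134), so the lines are not shown to differ from each other. The KO call was lost under a within-pair spread. The 4XKO call was lost under it, without 4XKO ESC replicate 1 and without WT EpiLC replicate 2.

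For Gata6 the EpiLC change of 3XKO exceeded that of WT by 1.77 ± 0.40, lost in the fit of all 47 arrays. For Sox7 the same difference was 4.33 ± 1.07, but neither 3XKO nor WT had all arrays of a group above the limit, and with the floor at the limit it was 0.01 and not called.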

How the results depend on the processing

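With a within-pair spread, called member differences numbered 13 of mutant lines against WT (25 in the fit reported above) and 1 of EpiLC+CH against EpiLC (2). Over all probes these counts were 25287 (38307) and 1401 (3973), and further 11683 (19579) for 4XKO against the other mutant lines and 9892 (14908) for continuous CHIR99021. With the floor at the background limit the member counts were 5 (2) for EpiLC+CH against EpiLC, 5 (3) for differences of the CHIR99021 response and 12 (7) for differences of the EpiLC transition, and 8 probes (88) were called for LIF+PD+24hrCH against LIF+PD. In 1 fit of all 47 arrays, 1 member (0) and 1182 probes (88) were called in that comparison. The cause was not tested. In 9 of 234 pairs, arrays of the same replicate number in different groups deviated together (r over 0.1), so the numbers were not taken as pairs. With the replicate block, 0 probes (88) were called for LIF+PD+24hrCH against LIF+PD, 28 members (25) for mutant lines against WT and 13 (12) for EpiLC against ESC. Leaving out each array gave 2 to 5 called members for continuous CHIR99021 (3), the lowest without WT EpiLC+CH replicate 2 and the highest without WT ContinuedCH replicate 1. The difference of the Pdgfra transition of 3XKO from that of WT, not called, was reversed to -0.59 with the floor at the limit (adjusted p = 0.0343). Of 1920 recomputed single differences of members, 1761 stayed called or stayed not called, 119 lost the call, 39 gained one and 1 changed sign with a call. Changes of sign between values that were not called were not counted. The limit of 13.6 to 14.3 leaves most levels of 8 of the 9 members near background, where signal over background limits what can be seen. 1 line per genotype means that a deletion and other differences between lines cannot be told apart.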
